A study of Mus musculus with 60 samples.

Results

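The step from the morula to the blastula was examined in embryos made by nuclear transfer of cumulus cells (NTC embryos), over all genes of the deposited expression table. The members are the 3 NTC morula and 3 NTC blastula libraries, taken from the labels, which are 6 of the 60 libraries of the study and were compared across 27238 genes. An NTC embryo holds the nucleus of a cumulus cell (CC, the granulosa-type cell that surrounds the ovulated egg) from a BDF1 female in an oocyte whose own chromosomes were removed. The oocytes came from superovulated BDF1 females of 8 to 10 weeks, and all embryos of the study share the BDF1 (C57BL/6 by DBA2) background. The reconstructed embryos were activated with SrCl2 in calcium-free medium with cytochalasin B and were given Scriptaid, an inhibitor of histone deacetylases, and were then grown in vitro. The 2 groups used beside them are NTM embryos, reconstructed and activated in the same way with nuclei of mouse embryonic fibroblasts (MEFs), and in vivo embryos, which came from superovulated C57BL/6 females mated with DBA2 males and received no nucleus, activation or Scriptaid. Culture, activation, inhibitor and origin of the nucleus therefore cannot be told apart when NT embryos are set beside in vivo embryos. The MEFs came from BDF1 fetuses, were passaged in culture and were kept in low serum to synchronize their cell cycle. The cumulus cells were stored cold until use. Type and preparation of the donor cell thus cannot be told apart between NTC and NTM embryos. Each library is 1 embryo picked by its form, each group has 3, and the embryos came from at least 3 independent experiments according to the labels. A whole embryo was sequenced, so fewer cells of a type and less RNA per cell cannot be told apart.

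In the morula the cells press together and form cell contacts, and in the blastula an outer epithelium, the trophectoderm, pumps fluid into a cavity and encloses the inner cell mass. The trophectoderm is known for the factors Cdx2, Gata3, Eomes and Tfap2a, for keratins 8 and 18 and for desmosomes, and later gives the placenta. The inner cell mass keeps factors such as Pou5f1, Nanog and Sox2 and splits into the epiblast and the primitive endoderm, a choice that depends on Fgf4. Around the same time the embryo shifts from pyruvate to glucose, and the transcripts brought by the egg have long been replaced by its own.

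The NTC morulas had 15687102 to 26281165 reads on genes and the NTC blastulas 10215544 to 19033016 reads, as recovered from the steps between expression values. Expression is in RPKM, read counts scaled by exon length and depth, and a transcript of 2000 bases with a value of 0 could hold up to 0.0571 to 0.147 RPKM, which is 3 reads (counting error only). Between 11841 and 13314 genes were above 0 in a morula and 11771 to 13000 in a blastula. The mitochondrial genome took 24.8 to 40.4% of the reads of a morula and 25 to 34.4% of those of a blastula. Across genes, which are not independent replicates, libraries of the same stage had Pearson correlations of 0.873 to 0.932 (morula) and 0.858 to 0.907 (blastula).

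Of 10044 genes with a mean of at least 0.5 RPKM in the 6 libraries, 456 were up-regulated in blastulas, which is 4.54% of those tested, and 263 were down-regulated, which is 2.62%. A gene was called when limma on log2(RPKM + 1) gave an adjusted p under 0.05 (Benjamini-Hochberg, over all genes tested) together with a change of 1 or more on the log2 scale. An unadjusted p under 0.05 was reached by 2503 of the 10044 genes, the background for such counts in the lists below. Up-regulated genes were low in morulas, with a median of 2.00 RPKM against 15.8 RPKM in blastulas, while down-regulated genes went from a median of 27.3 RPKM to 4.49 RPKM. Their median log2 fold changes were 2.17 and -2.09, and the median of all genes tested was 0.17. Median-ratio scaling moved that median to 0.04 and turned the split of calls to 407 up-regulated and 419 down-regulated genes, so the excess of rises rests on the scaling while the direction of each called gene named below does not. The 3 values of a stage lay wholly above or below those of the other for 3078 genes (30.6%), among them all 719 called. Where such separation is mentioned for a called gene below, it is therefore no added evidence. The count of calls also rests on single embryos: it was 162 without blastula 1, 184 without blastula 2, 253 without morula 1 and 226 without morula 3, and 501 without morula 2 or 603 without blastula 3. Calls that a single embryo decides are given with their genes, and p-values measure only the spread between these embryos.

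The gene lists used from here on were chosen with earlier results of these data known, so their shares are a description and carry no test. Of 13 tested regulators of the trophectoderm, 4 were up-regulated, against 4.54% of all genes tested, none was down-regulated (7 had an unadjusted p under 0.05), and the median log2 fold change was 1.47. Eomes, a T-box factor of the trophoblast, was at 0.013, 0 and 0 RPKM in the morulas and 20.4, 9.02 and 4.83 RPKM in the blastulas (log2 fold change 3.42 ± 0.52, adjusted p = 0.00832). Tfap2a, a factor of the AP-2 family, was listed at 0 in all morulas and at 45.1, 5.44 and 5.86 RPKM in the blastulas (adjusted p = 0.0193). Both were thus close to absent in every morula and present in every blastula, with blastula 1 the highest. Klf6, a Krüppel-like zinc finger factor, was at 5.34, 5.15 and 1.57 RPKM in the morulas and 22.6, 54.4 and 83.3 RPKM in the blastulas (log2 fold change 3.37 ± 0.55, adjusted p = 0.0107). Id2, an inhibitor of basic helix-loop-helix factors that marks outer cells, was at 2.47, 0.653 and 2.7 RPKM in the morulas and 311, 94.9 and 7.86 RPKM in the blastulas (log2 fold change 4.54 ± 1.06, adjusted p = 0.036). The blastulas ran in opposite orders for these genes, since blastula 3 was the highest for Klf6 and the lowest for Id2. Eomes stayed called whichever of the 6 libraries was left out. The call of Tfap2a was lost without morula 1 or morula 3 (adjusted p up to 0.0685). The call of Klf6 was lost without blastula 2 (adjusted p up to 0.057). The call of Id2 was lost without blastula 1, blastula 2, morula 1, morula 2 or morula 3 (adjusted p up to 0.126). The number of regulators called was 2 without blastula 2 or morula 1 or morula 3.

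Cdx2, Gata3 and Elf5, which the field takes as defining for this lineage, were not called. Cdx2 was at 21.7, 0 and 14.5 RPKM in the morulas and 60.4, 51.2 and 8.83 RPKM in the blastulas (log2 fold change 2.16 ± 1.12, adjusted p = 0.264), and blastula 3 fell within the range of the morulas. Gata3 was at 48, 4.17 and 28.2 RPKM in the morulas and 61.7, 53.8 and 29.9 RPKM in the blastulas (log2 fold change 1.28 ± 0.73, adjusted p = 0.308), already present in all morulas. Elf5 was listed at 0 in the morulas and at 2.58, 0.313 and 0 RPKM in the blastulas, too low to be tested. Cdx2 and Gata3 were thus present in every blastula. Of the 13 tested regulators, 10 had a positive change, where the median of all genes tested was itself above 0, at 0.17. Counts of positive or negative changes in NTC embryos, here and below, have no share over all genes tested beside them.

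Of 12 tested genes of keratins, desmosomes and epithelial adhesion, 6 were up-regulated, against 4.54% of all genes tested, and none was down-regulated (8 had an unadjusted p under 0.05), with a median of 2.04, above the median of all genes tested. Krt8, the type II keratin of simple epithelia, was at 8.36, 10.4 and 3.54 RPKM in the morulas and 246, 185 and 63.2 RPKM in the blastulas (log2 fold change 4.19 ± 0.55, adjusted p = 0.00595). Its partner Krt18 was at 58.8, 12.4 and 30.7 RPKM in the morulas and 338, 251 and 47.8 RPKM in the blastulas (log2 fold change 2.45 ± 0.75, adjusted p = 0.0808) and did not pass, with morula 1 at 58.8 RPKM above blastula 3 at 47.8 RPKM. Epcam, an adhesion molecule of epithelial cells, was at 19.3, 9.0 and 18.2 RPKM in the morulas and 291, 156 and 80.3 RPKM in the blastulas (log2 fold change 3.30 ± 0.49, adjusted p = 0.00792). The 3 lowest blastula values of Krt8, Krt18 and Epcam all came from blastula 3. Desmoplakin (Dsp), which ties keratin filaments to desmosomes, was at 0.332, 0.576 and 0.0158 RPKM in the morulas and 5.84, 6.81 and 6.12 RPKM in the blastulas (log2 fold change 2.49 ± 0.40, adjusted p = 0.0101), the most even of these rises. The desmosomal cadherin Dsg2 was at 3.42, 0.00771 and 0.0046 RPKM in the morulas and 30.9, 26.2 and 8.8 RPKM in the blastulas (log2 fold change 3.63 ± 0.68, adjusted p = 0.017). Dsc2, the other desmosomal cadherin of the list, was at 0, 0.0121 and 0 RPKM in the morulas and 32.2, 14.1 and 2.39 RPKM in the blastulas (log2 fold change 3.57 ± 0.73, adjusted p = 0.0235). Both cadherins were higher in every blastula than in any morula. E-cadherin (Cdh1), which holds the compacted morula together, was already at 13.3, 16.1 and 9.5 RPKM in the morulas and 53.8, 32.7 and 40.5 RPKM in the blastulas (log2 fold change 1.63 ± 0.35, adjusted p = 0.0279). Krt8, Epcam and Dsp stayed called whichever of the 6 libraries was left out. The call of Dsg2 was lost without blastula 1, blastula 2 or morula 3 (adjusted p up to 0.0802). The call of Dsc2 was lost without blastula 1, blastula 2, morula 1, morula 2 or morula 3 (adjusted p up to 0.0913). The call of Cdh1 was lost without blastula 1, blastula 2, blastula 3, morula 1 or morula 3 (adjusted p up to 0.108). The number called in this list was 3 without blastula 1 or blastula 2 or morula 3. Of 75-base stretches of the Krt8 transcripts, 23.5% also occur in other genes, mostly its pseudogene Krt8-ps, so some of its reads may have been shared or lost.

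The promoter of Krt8 is shown because Krt8 had the largest change in this group and because the factors named for this lineage bind short known motifs. Capitals mark matches to the GATA motif AGATAA, read on either strand, and to the motif of Krüppel-like factors, which was searched as CCACCC, in the 250 bases before the start of transcription, from RefSeq on GRCm38.p6, at chr15:102004343-102004592, minus strand, written 5′ to 3′ on the strand of the gene.
Krt8 promoter: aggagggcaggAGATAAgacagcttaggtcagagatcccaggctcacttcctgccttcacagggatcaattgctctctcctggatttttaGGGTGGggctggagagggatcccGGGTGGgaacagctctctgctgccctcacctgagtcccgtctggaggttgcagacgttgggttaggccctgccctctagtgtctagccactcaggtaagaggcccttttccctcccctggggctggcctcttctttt
The GATA match starts at -239 and the matches for Krüppel-like factors at -160 and -137, counted from the start of transcription. No match to the AP-2 motif GCCNNNGGC or the TEAD motif GGAATG is in this window. A match is a run of letters and not a measured binding site.

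The pumps, water channels and tight junction genes that make the cavity gave no call among 12 tested by limma. Of these, 4 had an unadjusted p under 0.05, where 2503 of all 10044 genes tested did, and the median was 0.59. Atp1b1, the beta subunit of the sodium pump, was at 1.09, 2.17 and 1.78 RPKM in the morulas and 5.04, 1.69 and 3.43 RPKM in the blastulas (log2 fold change 0.66 ± 0.45, adjusted p = 0.399), and the groups overlapped. Aqp3, a water and glycerol channel, was at 20.3, 22.5 and 7.8 RPKM in the morulas and 6.29, 4.48 and 5.78 RPKM in the blastulas (log2 fold change -1.34 ± 0.45, adjusted p = 0.106). It was higher in every morula than in any blastula but did not pass the threshold on the adjusted p. The tight junction protein occludin (Ocln) was at 1.72, 0.408 and 10.4 RPKM in the morulas and 17.2, 12.8 and 10.2 RPKM in the blastulas (log2 fold change 2.01 ± 0.69, adjusted p = 0.112). Claudin 6 (Cldn6) was at 0.359, 2.79 and 1.14 RPKM in the morulas and 9.91, 8.86 and 4.03 RPKM in the blastulas (log2 fold change 1.87 ± 0.52, adjusted p = 0.0608). These values do not show that the genes were constant, because the test had 3 embryos per stage and a median SE of 0.46 over all genes.

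The 15 largest rises, among up-regulated genes that reached 5 RPKM, were led by Lgals1, galectin-1, a lectin that binds beta-galactosides at the cell surface. Lgals1 was at 0, 0.0797 and 0.713 RPKM in the morulas and 130.1, 103 and 52.6 RPKM in the blastulas (log2 fold change 6.20 ± 0.45, adjusted p = 0.00135). It was near 0 in every morula and above 50 RPKM in every blastula. Tspan8, a tetraspanin of the cell membrane, was at 6.72, 0.0419 and 4.9 RPKM in the morulas and 257, 158 and 49.7 RPKM in the blastulas (log2 fold change 5.14 ± 0.80, adjusted p = 0.00927), with morula 2 far below the other morulas. Ank, a membrane protein that carries pyrophosphate out of the cell, was at 0.885, 1.25 and 0.0633 RPKM in the morulas and 70.2, 51.4 and 19.4 RPKM in the blastulas (log2 fold change 4.68 ± 0.54, adjusted p = 0.00479). Fabp3, which carries fatty acids inside the cell, was at 5.72, 18.8 and 5.41 RPKM in the morulas and 131, 233 and 80 RPKM in the blastulas (log2 fold change 3.84 ± 0.53, adjusted p = 0.00667). For Tspan8 and Ank the order of the blastulas was 1, 2 and 3 from high to low, and for Fabp3 blastula 2 was the highest. Gnai1, an inhibitory G protein subunit, was at 1.74, 0.325 and 2.52 RPKM in the morulas and 52.1, 41 and 28.9 RPKM in the blastulas (log2 fold change 4.11 ± 0.46, adjusted p = 0.0047). Cib2, a small calcium-binding protein that binds integrins, was at 0, 0 and 0.319 RPKM in the morulas and 15.2, 38.6 and 4.85 RPKM in the blastulas (log2 fold change 3.82 ± 0.65, adjusted p = 0.0119). Adh1, an alcohol dehydrogenase, was listed at 0 in all morulas and at 46, 51.2 and 1.62 RPKM in the blastulas (adjusted p = 0.0363), so blastula 3 carried little of it. Lgals1, Ank, Fabp3 and Gnai1 stayed called whichever of the 6 libraries was left out. The call of Tspan8 and Cib2 was lost without blastula 1 (adjusted p up to 0.0503 and 0.0579). The call of Adh1 was lost without blastula 1, blastula 2, morula 1, morula 2 or morula 3 (adjusted p up to 0.132). For Fabp3, 26% of the 75-base stretches also occur in other genes (mainly Fabp3-ps1), and for Cib2 11.3%, in Sh2d7 on the opposite strand.

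Regulators were also among the largest rises. Hif1a, the oxygen-regulated subunit of a transcription factor, was at 1.03, 0.951 and 0.639 RPKM in the morulas and 19.9, 44.4 and 21.9 RPKM in the blastulas (log2 fold change 3.90 ± 0.42, adjusted p = 0.00438). Mcrip1, a partner of a transcriptional corepressor that is controlled by MAP kinase, was at 0.169, 1.39 and 0.475 RPKM in the morulas and 23.7, 41.9 and 54.4 RPKM in the blastulas (log2 fold change 4.60 ± 0.46, adjusted p = 0.00396). Ccni, cyclin I, was at 1.67, 0.965 and 0.564 RPKM in the morulas and 42.6, 25.3 and 38.5 RPKM in the blastulas (log2 fold change 4.14 ± 0.40, adjusted p = 0.00364). All 3 stayed below 2 RPKM in every morula and reached at least 19.9 RPKM in every blastula. Rai14, an ankyrin repeat protein of actin bundles, was at 4.29, 0.229 and 1.05 RPKM in the morulas and 41.8, 47.2 and 56.7 RPKM in the blastulas (log2 fold change 4.38 ± 0.53, adjusted p = 0.00503), with blastula 3 the highest. Hif1a, Mcrip1, Ccni and Rai14 stayed called whichever of the 6 libraries was left out.

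A pair of neighbouring genes on chromosome 11 rose together. Dppa1 (chr11:46607772-46629261, minus strand), a gene named for its association with developmental pluripotency, was at 5.15, 0.0405 and 8.19 RPKM in the morulas and 359, 194 and 54.5 RPKM in the blastulas (log2 fold change 5.34 ± 0.87, adjusted p = 0.0104). BC053393 (chr11:46571536-46589232, plus strand), a protein-coding gene with no descriptive name, was at 3.59, 2.15 and 0.923 RPKM in the morulas and 151, 108 and 34.9 RPKM in the blastulas (log2 fold change 4.80 ± 0.57, adjusted p = 0.00503). In both, the blastulas ordered as 1, 2 and 3 from high to low. Gm4926 and Havcr1 lie in the same stretch (chr11:46571536-46779578) and were called higher as well, which gives 4 up-regulated genes with gaps of at most 1 Mb. BC053393 stayed called whichever of the 6 libraries was left out. The call of Dppa1 was lost without blastula 1 or blastula 2 (adjusted p up to 0.0553). The promoters of the pair are shown for comparison, from RefSeq on GRCm38.p6, 250 bases before each start, 5′ to 3′ on the strand of the gene. Dppa1 lies at chr11:46629275-46629524, minus strand, and BC053393 at chr11:46571263-46571512, plus strand. Capitals mark matches on either strand to the motifs of GATA and Krüppel-like factors given for Krt8 and to the AP-2 motif GCCNNNGGC.
Dppa1 promoter: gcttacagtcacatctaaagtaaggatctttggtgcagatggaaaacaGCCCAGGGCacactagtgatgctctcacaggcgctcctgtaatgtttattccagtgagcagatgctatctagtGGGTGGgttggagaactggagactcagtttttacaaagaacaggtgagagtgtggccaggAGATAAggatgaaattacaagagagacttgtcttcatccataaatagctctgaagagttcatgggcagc
BC053393 promoter: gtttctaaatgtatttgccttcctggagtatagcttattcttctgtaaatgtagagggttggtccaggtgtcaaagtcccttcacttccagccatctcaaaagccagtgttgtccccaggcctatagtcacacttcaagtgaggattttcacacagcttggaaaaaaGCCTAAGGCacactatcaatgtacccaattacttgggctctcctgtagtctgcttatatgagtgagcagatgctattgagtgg
Each window holds 1 AP-2 match, which starts at -202 in Dppa1 and at -83 in BC053393. The longest run that both share is agtgagcagatgctat, 16 bases, which starts at -150 in Dppa1 and at -23 in BC053393.

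**Figure D1:**
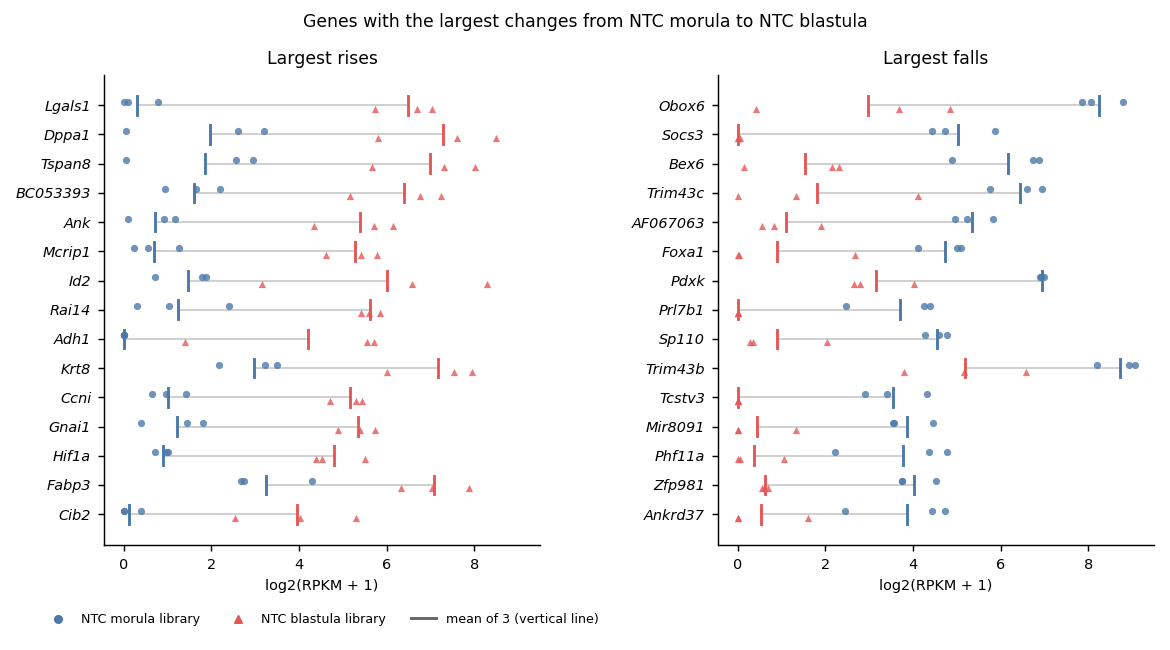
Expression of the 15 genes with the largest rises (left) and the 15 with the largest falls (right), as log2(RPKM + 1) on the horizontal axis, for each NTC morula (circles) and NTC blastula (triangles), with vertical lines at the means of 3 and 1 gene per line of the vertical axis. The values of the 2 stages do not overlap for any of these genes, a condition for being drawn, and Lgals1 goes from at most 0.713 RPKM to at least 52.6 RPKM.

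The 15 largest falls among called genes that reached 5 RPKM and have a descriptive name included transcription factors and families known from cleavage-stage embryos, and the largest fall of any called gene was -5.56 on the log2 scale. Obox6, a homeobox gene of the oocyte-specific Obox family, was at 266, 447 and 232 RPKM in the morulas and 0.338, 11.9 and 27.6 RPKM in the blastulas (log2 fold change -5.26 ± 0.92, adjusted p = 0.0136). Foxa1, a forkhead factor that opens chromatin, was at 16.3, 33 and 31.3 RPKM in the morulas and 0, 0.0165 and 5.4 RPKM in the blastulas (log2 fold change -3.84 ± 0.71, adjusted p = 0.016). In both genes blastula 3 kept the highest level of the blastulas. Zfp981, a zinc finger gene, was at 22.2, 12.5 and 12.6 RPKM in the morulas and 0.622, 0.515 and 0.464 RPKM in the blastulas (log2 fold change -3.40 ± 0.40, adjusted p = 0.00503). Trim43b, of a family of tripartite motif genes, was at 532, 295 and 486 RPKM in the morulas and 13, 34.9 and 94.3 RPKM in the blastulas (log2 fold change -3.55 ± 0.60, adjusted p = 0.0122). Trim43c was at 96.6, 53.1 and 122 RPKM in the morulas and 0, 1.5 and 16.4 RPKM in the blastulas (log2 fold change -4.62 ± 0.88, adjusted p = 0.0183). The Trim43 genes lie beside each other on chromosome 9, and Trim43a was called lower too. Tcstv3, of a family named for its variable expression in 2-cell embryos, was at 18.9, 6.5 and 9.7 RPKM in the morulas and listed at 0 in all blastulas (adjusted p = 0.00595). AF067063, in the same cluster of 5 down-regulated genes (chr13:119827961-120318178), was at 30.4, 36.7 and 56.1 RPKM in the morulas and 0.77, 0.475 and 2.77 RPKM in the blastulas (log2 fold change -4.25 ± 0.46, adjusted p = 0.00438). Zfp981, Tcstv3 and AF067063 stayed called whichever of the 6 libraries was left out. The call of Obox6 was lost without morula 1 (adjusted p up to 0.0518). The call of Foxa1 was lost without blastula 1, blastula 2 or morula 3 (adjusted p up to 0.0692). The call of Trim43b was lost without blastula 2 or morula 1 (adjusted p up to 0.0584). The call of Trim43c was lost without blastula 1, blastula 2, morula 1 or morula 3 (adjusted p up to 0.0805). Several of these genes share sequence with others: 61% of the 75-base stretches of AF067063 also occur in other genes, 43.3% of Trim43c, 33.3% of Trim43b, 23.3% of Zfp981 and 14.3% of Tcstv3. For Trim43c, 26.5% of the stretches occur in 9330159M07Rik, which overlaps it on the opposite strand. How many reads belong to each gene is therefore uncertain.

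Genes of signalling, metabolism and other roles were also among the 15, and Socs3 and Bex6 came next after Obox6 by size. Socs3, which is induced by and blocks cytokine signals such as that of leukaemia inhibitory factor, was at 20.6, 57.9 and 25.8 RPKM in the morulas and 0, 0.0363 and 0 RPKM in the blastulas (log2 fold change -5.00 ± 0.46, adjusted p = 0.00343). Pdxk, the kinase that activates vitamin B6, was at 119, 127 and 121 RPKM in the morulas and 15.4, 5.27 and 5.92 RPKM in the blastulas (log2 fold change -3.79 ± 0.41, adjusted p = 0.00438), with very even morulas. Prl7b1, a member of the prolactin family of the placenta, was at 19.8, 4.55 and 18 RPKM in the morulas and listed at 0 in all blastulas (adjusted p = 0.00792). Socs3 and Prl7b1 were thus at or near 0 in every blastula. Bex6, of the brain-expressed X-linked family, was at 28.8, 116 and 106 RPKM in the morulas and 0.0991, 3.44 and 3.97 RPKM in the blastulas (log2 fold change -4.64 ± 0.69, adjusted p = 0.00792). Sp110, a nuclear body protein, was at 18.3, 23.4 and 26.4 RPKM in the morulas and 0.268, 0.217 and 3.12 RPKM in the blastulas (log2 fold change -3.66 ± 0.52, adjusted p = 0.00779). Phf11a, with a PHD finger, was at 26.3, 3.67 and 19.5 RPKM in the morulas and 0, 0.0388 and 1.08 RPKM in the blastulas (log2 fold change -3.41 ± 0.67, adjusted p = 0.0202). Of these, Bex6 kept the highest level in blastulas 2 and 3, while Sp110 and Phf11a kept it in blastula 3. Ankrd37, an ankyrin repeat gene, was at 4.47, 25.6 and 20.7 RPKM in the morulas and 0, 0 and 2.02 RPKM in the blastulas (log2 fold change -3.34 ± 0.69, adjusted p = 0.0236). Mir8091, a microRNA gene (chr19:41588651-41588789, plus strand), was at 10.9, 21.1 and 10.7 RPKM in the morulas and 0, 1.51 and 0 RPKM in the blastulas (log2 fold change -3.42 ± 0.51, adjusted p = 0.00792), and these are reads on the precursor gene and not a measurement of a mature microRNA. Socs3, Pdxk, Prl7b1, Bex6, Sp110 and Mir8091 stayed called whichever of the 6 libraries was left out. The call of Phf11a was lost without blastula 1, blastula 2, morula 1 or morula 3 (adjusted p up to 0.0838). The call of Ankrd37 was lost without blastula 1, blastula 2, morula 2 or morula 3 (adjusted p up to 0.0933). Shared stretches made up 38.2% of Pdxk (4921516A02Rik, opposite strand), 30.4% of Sp110, 17.4% of Phf11a and 13.3% of Ankrd37 (Lrp2bp, opposite strand), and whether counting used strand is not given in the sources used here.

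The earlier stages of the same embryo type, whose values took no part in choosing these genes, place the changes in time. The median of the 263 down-regulated genes was 1.61 RPKM in NTC 1-cell embryos, 6.47 at the 2-cell stage, 26.1 at the 4-cell stage and 27.7 at the 8-cell stage. The median had thus reached its morula level by the 4-cell stage, but single genes differed, such as Foxa1, which was at 2.07, 0 and 0.367 RPKM at the 4-cell stage. The median of the 456 up-regulated genes was 5.38 RPKM in 1-cell embryos, 5.02, 3.39 and 4.44 RPKM at the next stages, so the morula was their lowest stage, although the morula values took part in choosing these genes. For 208 of the up-regulated genes (45.6%, against 32.3% of all genes tested) every 1-cell value lay above every morula value. The morula side of this comparison also took part in choosing the genes, so the excess over all genes is not independent of that choice. In vivo embryos, whose libraries are separate from the NTC libraries, had their highest mean at the blastula for 207 of the up-regulated genes (45.4%, against 17.4% of all tested). They had it at the 4-cell stage for 141 of the down-regulated genes (53.6%, against 34.9%) and at the 8-cell stage for 49 (18.6%, against 6.36%).

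**Figure D2:**
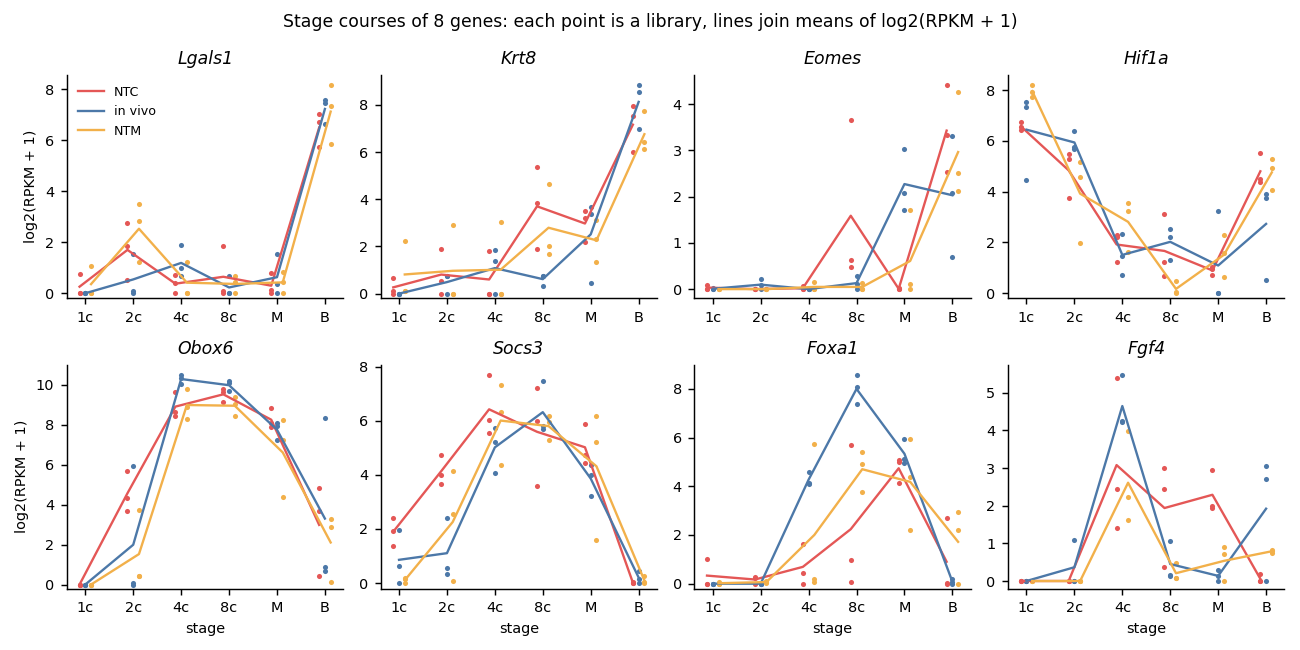
Courses of 8 genes over the 6 stages on the horizontal axis (1c to 8c, 1-cell to 8-cell; M, morula; B, blastula) as log2(RPKM + 1) on the vertical axis, with a point for each library and lines through the means of NTC, in vivo and NTM embryos. The genes are those named in the panel titles, and Lgals1 is at 10.3 RPKM or less in every library up to the morula and at 52.6 RPKM or more in every blastula of all 3 embryo types.

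Of 16 tested pluripotency and epiblast genes, 1 was down-regulated (Fgf4, 6.25% of the list against 2.62% of all genes tested). None was up-regulated, 8 had an unadjusted p under 0.05, and the median was -1.02. Fgf4, the growth factor that epiblast cells send to the primitive endoderm, was at 2.82, 6.65 and 3.0 RPKM in the morulas and 0, 0 and 0.129 RPKM in the blastulas (log2 fold change -2.23 ± 0.44, adjusted p = 0.0193). It was below 0.15 RPKM in every blastula, and its call was lost without blastula 1, blastula 2, morula 1 or morula 3 (adjusted p up to 0.0766). Pou5f1, which codes for Oct4, was at 18.6, 3.32 and 9.85 RPKM in the morulas and 5.49, 5.82 and 4.05 RPKM in the blastulas (log2 fold change -0.68 ± 0.55, adjusted p = 0.459). Nanog was at 89.1, 12.2 and 142 RPKM in the morulas and 103, 142 and 114 RPKM in the blastulas (log2 fold change 1.11 ± 0.74, adjusted p = 0.382), and morula 2 was the only library of the 6 far below the others. Pou5f1 and Nanog overlapped between the stages. Sox2 was listed at 0 in the morulas and at 0.515, 1.48 and 0.809 RPKM in the blastulas, below the limit for testing but above 0 in every blastula. Klf2 was at 8.7, 28 and 25.1 RPKM in the morulas and 1.31, 0.484 and 13.2 RPKM in the blastulas (log2 fold change -2.41 ± 0.80, adjusted p = 0.103), and Tdgf1, a co-receptor of Nodal, at 5.82, 2.07 and 12.6 RPKM in the morulas and 4.04, 0.020 and 0 RPKM in the blastulas (log2 fold change -1.93 ± 0.75, adjusted p = 0.149), values that did not pass the test.

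Among 12 tested primitive endoderm genes, 2 were up-regulated, against 4.54% of all genes tested, and none was down-regulated (5 with an unadjusted p under 0.05), with a median of 0.86, and both code for matrix proteins. Sparc, a secreted matrix protein, was at 0.209, 0.133 and 0.565 RPKM in the morulas and 10.5, 8.47 and 44.9 RPKM in the blastulas (log2 fold change 3.73 ± 0.60, adjusted p = 0.0102), highest in blastula 3. Lamc1, the laminin gamma chain of the basement membrane, was at 4.56, 3.6 and 3.08 RPKM in the morulas and 19.1, 10.1 and 10.6 RPKM in the blastulas (log2 fold change 1.54 ± 0.40, adjusted p = 0.0492). The transcription factors that define this lineage did not follow. Gata6 was at 77.7, 30.6 and 45.2 RPKM in the morulas and 20.9, 43.4 and 23.5 RPKM in the blastulas (log2 fold change -0.76 ± 0.43, adjusted p = 0.307). Gata4 was at 2.13, 2.56 and 0.078 RPKM in the morulas and listed at 0 in the blastulas (adjusted p = 0.183). Sox17 was above 0 only in blastula 1 of the 6 libraries (1.75 RPKM), and Pdgfra stayed at or below 0.199 RPKM. Sparc stayed called whichever of the 6 libraries was left out. The call of Lamc1 was lost without any 1 of the 6 libraries (adjusted p up to 0.159). In the 14 tested genes of FGF signalling and its feedback, 1 was up-regulated and 1, Fgf4, was down-regulated (median 0.69). Each is 7.14% of the list, against 4.54% and 2.62% of all genes tested. The rise was that of Dusp4, a phosphatase of MAP kinases, at 4.58, 2.23 and 0.43 RPKM in the morulas and 16.3, 46.3 and 10.9 RPKM in the blastulas (log2 fold change 2.85 ± 0.64, adjusted p = 0.0314), lost without blastula 1, blastula 2, morula 2 or morula 3. None of 17 tested Hippo pathway genes was called by limma (1 with an unadjusted p under 0.05), and their median of 0.14 turned to -0.03 under median-ratio scaling.

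Of 29 tested genes of the actin cytoskeleton and its annexin partners, 8 were up-regulated, against 4.54% of all genes tested, and none was down-regulated, with 27 positive changes and a median of 1.05. Tpm4, a tropomyosin that lines actin filaments, was at 92.4, 91.6 and 67 RPKM in the morulas and 332, 384 and 311 RPKM in the blastulas (log2 fold change 2.03 ± 0.27, adjusted p = 0.00609), and Tpm1 at 12.3, 12.6 and 8.41 RPKM in the morulas and 37.8, 29.4 and 30.7 RPKM in the blastulas (log2 fold change 1.49 ± 0.33, adjusted p = 0.032). Arpc2, a subunit of the complex that branches actin filaments, was at 290.4, 290.4 and 344 RPKM in the morulas and 1101, 1136 and 769 RPKM in the blastulas (log2 fold change 1.68 ± 0.25, adjusted p = 0.00797). These genes were already well expressed in the morula and rose with little scatter. Tmsb4x, thymosin beta 4, which holds actin monomers, was at 0.0789, 0.279 and 0.111 RPKM in the morulas and 25.2, 2.99 and 34.3 RPKM in the blastulas (log2 fold change 3.75 ± 0.74, adjusted p = 0.0207), with blastula 2 far below the other blastulas. Tmsb10 was at 12.5, 4.8 and 18.9 RPKM in the morulas and 60.5, 77.5 and 38.1 RPKM in the blastulas (log2 fold change 2.30 ± 0.49, adjusted p = 0.027), and 19.3% of its stretches occur in other genes. S100a10, the partner of annexin A2, was at 4.91, 1.53 and 7.03 RPKM in the morulas and 29.1, 36.9 and 34.6 RPKM in the blastulas (log2 fold change 2.80 ± 0.46, adjusted p = 0.011). Anxa6, an annexin, was at 3.84, 6.27 and 1.05 RPKM in the morulas and 25.8, 21.8 and 15.5 RPKM in the blastulas (log2 fold change 2.37 ± 0.50, adjusted p = 0.0264), and it lies beside Gm2a and Sparc, which were also up-regulated, on chromosome 11. Tpm4 stayed called whichever of the 6 libraries was left out. The call of Tpm1 was lost without blastula 1, blastula 2, blastula 3, morula 1 or morula 3 (adjusted p up to 0.112). The call of Arpc2 was lost without blastula 1 (adjusted p up to 0.0503). The call of Tmsb4x was lost without blastula 1, blastula 3, morula 1 or morula 3 (adjusted p up to 0.0877). The call of Tmsb10 was lost without blastula 1, blastula 2 or morula 1 (adjusted p up to 0.106). The call of S100a10 was lost without blastula 2 (adjusted p up to 0.0584). The call of Anxa6 was lost without blastula 1, blastula 2, morula 1 or morula 3 (adjusted p up to 0.103). The list count was 3 without blastula 1, 4 without blastula 2 and 5 without morula 1.

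Of 37 tested genes of mitosis, 4 were down-regulated, against 2.62% of all genes tested, and none was up-regulated, with 9 positive changes, 14 with an unadjusted p under 0.05 and a median of -0.42. Kif20a and Kif23 are kinesins of the central spindle, and Cdk1 with Cdc20 drives entry into and exit from mitosis. Kif20a was at 19.6, 11 and 13.7 RPKM in the morulas and 1.8, 2.2 and 3.15 RPKM in the blastulas (log2 fold change -2.21 ± 0.40, adjusted p = 0.0143). Kif23 was at 21.8, 21.6 and 19.9 RPKM in the morulas and 6.2, 6.95 and 7.32 RPKM in the blastulas (log2 fold change -1.50 ± 0.33, adjusted p = 0.0286). Cdk1 was at 11.9, 11.8 and 10.4 RPKM in the morulas and 2.4, 2.38 and 3.07 RPKM in the blastulas (log2 fold change -1.78 ± 0.36, adjusted p = 0.0224), with nearly equal values within each stage. Cdc20 was at 247, 357 and 163 RPKM in the morulas and 82.1, 124 and 47.7 RPKM in the blastulas (log2 fold change -1.62 ± 0.41, adjusted p = 0.0484). The call of Kif20a and Cdk1 was lost without blastula 1, blastula 2, morula 1 or morula 3 (adjusted p up to 0.0645 and 0.0818). The call of Kif23 was lost without blastula 1, blastula 2, morula 1, morula 2 or morula 3 (adjusted p up to 0.0941). The call of Cdc20 was lost without any 1 of the 6 libraries (adjusted p up to 0.131). The list count was 0 without blastula 1 or blastula 2 or morula 1 or morula 3 and 2 without morula 2, and median-ratio scaling gave 7 down-regulated genes. In Kif20a, 23.3% of the stretches occur in other genes, above all Cdc23 on the opposite strand. Of 39 tested DNA replication genes, 1 was up-regulated (2.56%, below the 4.54% of all genes tested, with a median of -0.31 and 11 with an unadjusted p under 0.05). It was Rpa3, a subunit of the single-strand binding protein, at 11.3, 16.1 and 8.94 RPKM in the morulas and 41.4, 46.6 and 38.6 RPKM in the blastulas (log2 fold change 1.75 ± 0.34, adjusted p = 0.019). Of 19 tested p53 target genes, 1 was down-regulated (5.26%, against 2.62% of all genes tested). It was Plk2, a polo-like kinase, at 29.2, 54.9 and 15.9 RPKM in the morulas and 6.46, 9.73 and 3.77 RPKM in the blastulas (log2 fold change -2.07 ± 0.50, adjusted p = 0.0408). The call of Rpa3 was lost without blastula 1, blastula 2, morula 1, morula 3, and that of Plk2 without blastula 1, blastula 2, blastula 3, morula 1, morula 2.

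Some genes of cholesterol synthesis and glycolysis rose. Of 21 tested cholesterol synthesis genes, 3 were up-regulated, against 4.54% of all genes tested, and none was down-regulated (median 0.76, 18 positive). Srebf2, the factor that switches on the pathway, was at 0.531, 1.11 and 1.98 RPKM in the morulas and 16.3, 15.2 and 5.89 RPKM in the blastulas (log2 fold change 2.55 ± 0.49, adjusted p = 0.019). Cyp51, a demethylase of lanosterol, was at 2.45, 7.39 and 2.68 RPKM in the morulas and 43.1, 27.3 and 16.5 RPKM in the blastulas (log2 fold change 2.56 ± 0.49, adjusted p = 0.0189). Srebf2 and Cyp51 were higher in every blastula than in any morula, with morula 2 the highest morula for Cyp51. Of 15 tested glycolysis genes, 2 were up-regulated, against the same 4.54%, and none was down-regulated (median 0.60, 8 with an unadjusted p under 0.05). Gapdh was at 132, 122 and 77.7 RPKM in the morulas and 424, 577 and 556 RPKM in the blastulas (log2 fold change 2.24 ± 0.30, adjusted p = 0.00595), and 22.6% of its stretches occur in 121 other genes. Tpi1, triose phosphate isomerase, was at 3.65, 1.62 and 3.98 RPKM in the morulas and 11.5, 12.8 and 15.2 RPKM in the blastulas (log2 fold change 1.84 ± 0.40, adjusted p = 0.0294). Gapdh stayed called whichever of the 6 libraries was left out. The call of Srebf2 was lost without blastula 1, blastula 2 or morula 1 (adjusted p up to 0.0845). The call of Cyp51 was lost without blastula 1, blastula 2, morula 1 or morula 3 (adjusted p up to 0.0804). The call of Tpi1 was lost without any 1 of the 6 libraries (adjusted p up to 0.0967). Gapdh is often used as a reference transcript, and here it differed between the stages in every fit that left out a library. The cholesterol count was 0 without blastula 1 or blastula 2 or morula 1.

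The called genes of the mitochondrial genome changed in opposite directions according to their kind. Of 14 tested, 11 had a positive change. The calls were 6 protein-coding genes up-regulated and the 2 ribosomal RNAs down-regulated, against 4.54% and 2.62% of all genes tested. The rises were 3 without blastula 1 or blastula 2, and the falls 0 without blastula 1 or blastula 2 and 1 without morula 2 or morula 3. mt-Co1, a subunit of cytochrome c oxidase, was at 12061, 14515 and 17493 RPKM in the morulas and 82304, 58512 and 69830.0 RPKM in the blastulas (log2 fold change 2.26 ± 0.21, adjusted p = 0.00343). The subunits of complex I mt-Nd6 (1.93 ± 0.26, adjusted p = 0.00633), mt-Nd4 (1.49 ± 0.22, adjusted p = 0.00792), mt-Nd1 (1.41 ± 0.24, adjusted p = 0.0129) and mt-Nd5 (1.16 ± 0.23, adjusted p = 0.0217) rose as well, given as log2 fold changes. mt-Rnr1, the small ribosomal RNA, was at 2505, 9494 and 4459 RPKM in the morulas and 748, 804 and 1065 RPKM in the blastulas (log2 fold change -2.46 ± 0.42, adjusted p = 0.013). mt-Rnr2, the large one, was at 139466, 220535 and 159429 RPKM in the morulas and 48637, 48410.0 and 97642 RPKM in the blastulas (log2 fold change -1.47 ± 0.29, adjusted p = 0.021), the most abundant of the set in every library but blastulas 1 and 2. The summed share of mitochondrial reads did not separate the stages (24.8 to 40.4% and 25 to 34.4%), so the makeup of these reads differed while their sum overlapped. mt-Co3 was at 18.6, 32.8 and 21.5 RPKM in the morulas and 82.7, 97.7 and 81.7 RPKM in the blastulas (log2 fold change 1.84 ± 0.32, adjusted p = 0.0134), far below mt-Co1, and 99.9% of its stretches occur in a nuclear copy (Gm28437), as do 61.5% of those of mt-Nd4 (Gm28439) and 39.8% of those of mt-Co1 (mainly Gm29216), and how shared reads were counted was not tested. mt-Co1, mt-Nd6 and mt-Nd4 stayed called whichever of the 6 libraries was left out. The call of mt-Nd1 and mt-Rnr1 was lost without blastula 1 or blastula 2 (adjusted p up to 0.0653 and 0.0639). The call of mt-Nd5 was lost without any 1 of the 6 libraries (adjusted p up to 0.0778). The call of mt-Co3 was lost without blastula 1, blastula 2, morula 1 or morula 3 (adjusted p up to 0.0656). The call of mt-Rnr2 was lost without blastula 1, blastula 2, morula 2 or morula 3 (adjusted p up to 0.104). In the other embryo types 3 of 14 tested genes had a positive change in vivo (median -0.73) and 7 of 14 in NTM embryos (median 0.01). For mt-Nd4 the NTC change differed from the in vivo change by 2.24 ± 0.40 (adjusted p = 0.0442, limma interaction term). Nuclear genes of the respiratory chain gave 2 up-regulated genes of 72 tested (2.78%, below the 4.54% of all genes tested; median 0.37, 59 positive), Ndufs4 at 9.38, 27 and 12 RPKM in the morulas and 49.7, 53.2 and 46.5 RPKM in the blastulas (log2 fold change 1.70 ± 0.41, adjusted p = 0.0391) and Sdhd at 65.6, 39.3 and 51.1 RPKM in the morulas and 139.8, 141 and 113 RPKM in the blastulas (log2 fold change 1.34 ± 0.30, adjusted p = 0.0323), each kept in 1 of the 6 fits that left out a library.

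**Figure D3:**
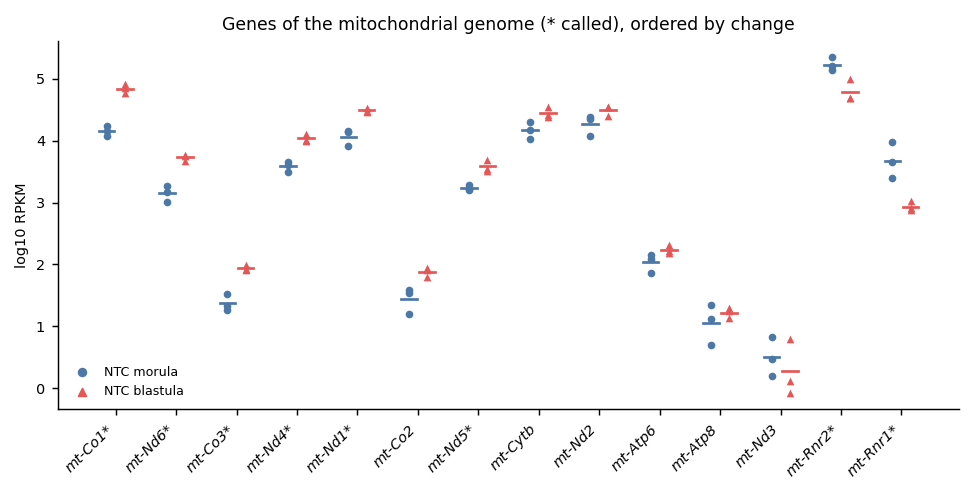
RPKM of each tested gene of the mitochondrial genome on a log10 scale on the vertical axis, for each NTC morula (circles) and NTC blastula (triangles), with short bars at the means of log10 values and genes ordered by their change on the horizontal axis. Asterisks mark called genes: 6 protein-coding genes to the left are higher in blastulas, and mt-Rnr2 and mt-Rnr1 at the right are lower.

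Genes of other roles stayed mostly below the threshold. Of 24 tested lysosomal genes, Laptm4b, a lysosomal membrane protein, was up-regulated (11.8, 7.56 and 5.4 RPKM in the morulas and 58.6, 43.3 and 15.7 RPKM in the blastulas) and Grn, progranulin, down-regulated (14.6, 13 and 7.77 RPKM in the morulas and 3.47, 2.66 and 1.24 RPKM in the blastulas), and these calls were lost in at least 5 of the 6 fits that left out a library. Each is 4.17% of the list, where 4.54% of all genes tested were up-regulated and 2.62% down-regulated. No call was made by limma among 36 proteasome genes (median -0.01, 0 with an unadjusted p under 0.05), 85 ribosomal protein genes (median -0.07, 4), 11 amino acid transporters (6), 35 phosphoinositide genes (7) and 12 imprinted genes of the classical kind (1). Proteasome and ribosomal protein genes thus gave medians near 0 on the log2 scale, and the latter moved to -0.26 under median-ratio scaling. Among 8 tested genes whose imprint rests on H3K27me3 in the oocyte, a mark that nuclear transfer embryos are known to lose, Etv6 was down-regulated (3.26, 4.1 and 5.3 RPKM in the morulas and 0.0633, 0.553 and 0.736 RPKM in the blastulas, log2 fold change -1.86 ± 0.42, adjusted p = 0.0323), and its call was lost in 5 of the 6 fits that left out a library. This call is 12.5% of a short list, against 2.62% of all genes tested. Sfmbt2 was at 0.557, 0 and 0.975 RPKM in the morulas and 4.14, 4.54 and 0.708 RPKM in the blastulas (log2 fold change 1.33 ± 0.55, adjusted p = 0.175). Slc38a4, an amino acid transporter of the placenta, was at 3.96, 1.73 and 5.09 RPKM in the morulas and 14.5, 11.8 and 10.2 RPKM in the blastulas (log2 fold change 1.58 ± 0.42, adjusted p = 0.0555). Of 15 tested genes of the oocyte, 12 had a negative change, none passed the test in that direction, and Ooep, a protein of the cortex of egg and embryo, was up-regulated (2.28, 6.56 and 2.85 RPKM in the morulas and 22, 30.2 and 16.5 RPKM in the blastulas, log2 fold change 2.35 ± 0.44, adjusted p = 0.017). This rise is 6.67% of the list, against 4.54% of all genes tested. The call of Ooep was lost without blastula 1, blastula 2, morula 1, morula 3.

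Transcripts of the donor cell type were nearly absent. Of 15 markers of cumulus cells, 9 were at 0 in all 6 libraries, and their summed level was 1.82 to 5.54 RPKM in the morulas and 4.25 to 6.73 RPKM in the blastulas, against 674 to 1885 RPKM in the cumulus cell libraries. Of 12 fibroblast markers, 7 were at 0 in all 6 libraries. The study names Tgfbr1, Kif3a, Tfcp2l1 and Cabin1 for this transition. It does so in its analysis of genes that, by its account, NT embryos failed to lower and that stayed above in vivo blastulas. None was called in NTC embryos. A missing fall in NTC embryos is part of that account, and its in vivo side is not given here. Tgfbr1, a receptor for TGF-beta, was at 1.32, 0 and 0.379 RPKM in the morulas and 0.475, 0.466 and 0.869 RPKM in the blastulas (log2 fold change 0.11 ± 0.44, adjusted p = 0.891). Kif3a, a motor of cilia, was at 2.84, 5.49 and 3.11 RPKM in the morulas and 1.67, 5.51 and 6.91 RPKM in the blastulas (log2 fold change 0.14 ± 0.51, adjusted p = 0.882). Tfcp2l1, a factor of naive pluripotency, was at 13.8, 0.554 and 10.3 RPKM in the morulas and 12.7, 11.8 and 5.23 RPKM in the blastulas (log2 fold change 0.69 ± 0.79, adjusted p = 0.605). All of these overlapped between the stages, and morula 2 was the lowest library for Tgfbr1 and Tfcp2l1. Cabin1, an inhibitor of calcineurin, was at 0.624, 0.846 and 0.755 RPKM in the morulas and 0.142, 1.14 and 0.223 RPKM in the blastulas (log2 fold change -0.27 ± 0.41, adjusted p = 0.706).

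**Figure D4:**
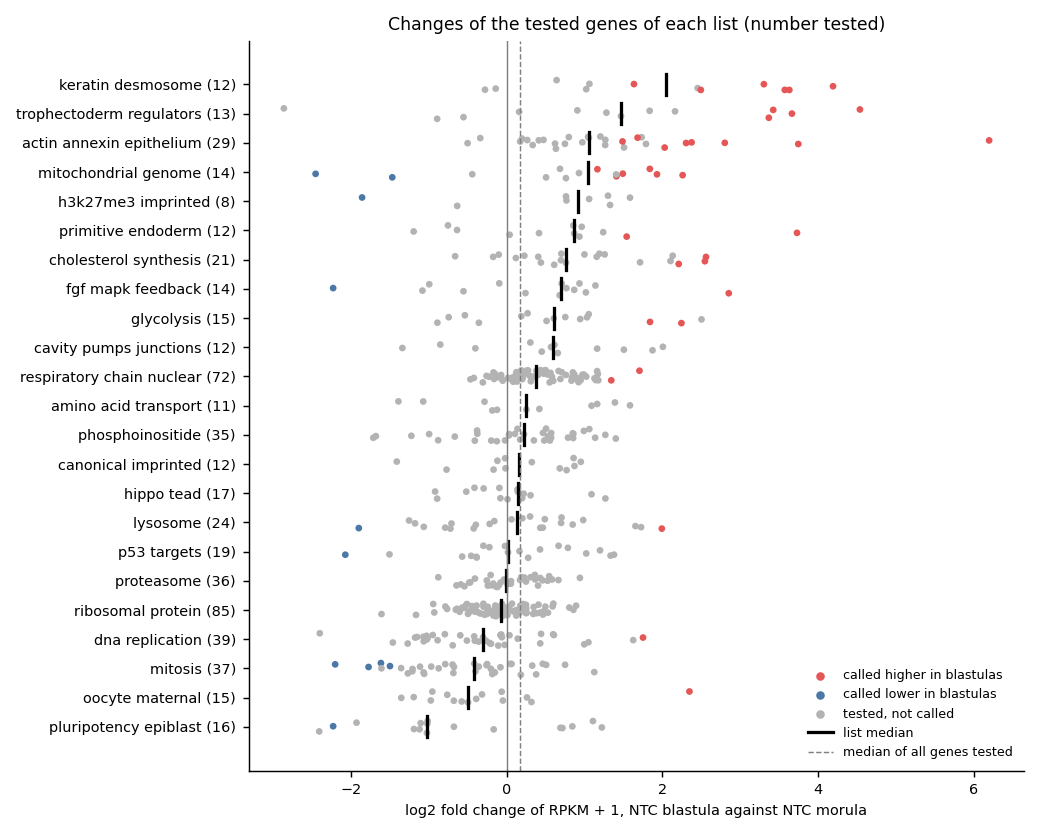
Log2 fold changes of RPKM + 1 (horizontal axis) of the tested genes of each list with at least 8 tested (vertical axis, number tested in brackets), coloured where called higher or lower in NTC blastulas, with a black bar at the list median and a dashed line at the median of all genes tested, 0.17. The keratin and desmosome list has the highest median, 2.04, and the pluripotency list the lowest, -1.02.

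The same step in NTM and in vivo embryos, with no library in common, was set beside these changes. Of the 456 genes up-regulated in NTC embryos, 450 had a higher mean in NTM blastulas than in NTM morulas (98.7%, against 74.3% of all genes tested), and 302 did so in vivo (66.2%, against 33.8%). Of the 263 down-regulated genes, 222 had a lower mean in NTM blastulas (84.4%, against 24.2%) and 241 in vivo (91.6%, against 60.7%). Over all genes tested in NTC embryos, the median change was 0.50 log2 in NTM and -0.24 in in vivo embryos, which sets these backgrounds. Both kinds of NTC call therefore leaned the same way in either other embryo type. Calls were shared for 133 up-regulated genes with NTM embryos, which is 29.2% of the NTC and 36.3% of the NTM calls, where 3.73% of NTM genes were up-regulated. With in vivo embryos 16 were shared, 3.51% of the NTC and 53.3% of the in vivo calls, where 0.348% of genes were up-regulated. Down-regulated in both were 27 genes for NTM (10.3% of the NTC and 55.1% of the NTM calls, background 0.499%) and 14 in vivo (5.32% and 35.9%, background 0.452%), and no gene was called in opposite directions. The counts of the other types rest on single embryos too, since leaving out 1 library gave 0 to 161 calls in vivo (69 with all, 0 without morula 2 or 3) and 28 to 879 for NTM (415 with all, 28 without blastula 1 and 879 without blastula 3). The median SE was 0.84 in vivo and 0.55 in NTM, against 0.46 in NTC embryos. Fewer calls in vivo, and few shared ones, therefore do not show a smaller or different change. One fit over all 20 groups gave 1809 in vivo and 463 NTC calls. The study itself reports more changed genes in vivo than in NT embryos at this step.

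Lgals1 is an example of a shared rise, with 1.9, 0 and 0.274 RPKM in in vivo morulas and 97.3, 175 and 191 RPKM in in vivo blastulas (6.59 ± 0.78, adjusted p = 0.0151). Dppa1 went from 0.0333, 0.0433 and 0.0464 to 162, 119 and 196 RPKM in vivo (7.24 ± 0.71, adjusted p = 0.00658). Foxa1 went from 30.2, 59.9 and 33.7 to 0.0399, 0.147 and 0 RPKM in vivo (-5.25 ± 0.76, adjusted p = 0.0235). These genes thus rose or fell in vivo as in NTC embryos. Not every large rise was shared. Mcrip1 was at 0 RPKM in all in vivo morulas and at 0, 0.0911 and 0 RPKM in in vivo blastulas. The difference between its changes was 4.56 ± 0.69 (adjusted p = 0.0149, limma interaction term). Eomes was at 3.23, 2.27 and 7.16 RPKM in in vivo morulas and 0.613, 3.23 and 8.99 RPKM in in vivo blastulas. The difference between its changes was 3.67 ± 1.00 (adjusted p = 0.104), which did not pass. Fgf4 was at 0, 0.0901 and 0.217 and then 0, 7.29 and 5.55 RPKM in vivo, with a difference between changes of -4.02 ± 0.96 (adjusted p = 0.0769). Neither Eomes nor Fgf4 can therefore be called different between NTC and in vivo embryos in its change.

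The interaction term in limma, which tests the NTC change against the in vivo change, passed for 23 of 9747 genes (0.236%), of which 20 were more positive and 3 more negative in NTC embryos. In vivo blastulas had fewer genes above 0, 7730 to 7808, than in vivo morulas (10109 to 11069) or NTC blastulas (11771 to 13000). Of the 20 genes, 18 had a mean under 1 RPKM in in vivo blastulas, and the part of the lower number of detected genes in this result was not tested. The share of all 9747 tested genes below that level was not computed. Only 4524 to 4654 genes reached 1 RPKM in an in vivo blastula, so values below it were common. A more positive difference in NTC embryos also favours genes with low in vivo blastula values. Sirt2, a deacetylase that uses NAD, was at 0.515, 0.25 and 0.149 RPKM in the morulas and 12.3, 11.5 and 14.5 RPKM in the blastulas, against 0.779, 4.11 and 4.02 and 0, 0 and 0.0244 RPKM in vivo (5.23 ± 0.72, adjusted p = 0.0137). Gyg, glycogenin, which primes glycogen, was at 0.0692, 0.19 and 0.0812 RPKM in the morulas and 4.3, 2.87 and 18 RPKM in the blastulas, against 8.93, 13.9 and 8.68 and 0, 0 and 0.706 RPKM in vivo (5.95 ± 0.86, adjusted p = 0.0137). For Cab39l, a partner of the kinase LKB1, the gap came from in vivo embryos, at 27.5, 23.6 and 36.8 and then 0.0419, 0.115 and 0.0287 RPKM, while NTC embryos had 16.2, 11.9 and 12.7 RPKM in the morulas and 38.9, 27 and 15.9 RPKM in the blastulas (5.69 ± 0.73, adjusted p = 0.0137). In vivo the changes of Sirt2 and Gyg were -1.83 (adjusted p = 0.215) and -3.24 (adjusted p = 0.0923), so their differences hold a rise in NTC embryos and a negative value in vivo, while Cab39l fell in vivo (-4.81, adjusted p = 0.0329) and was not called in NTC embryos. The 3 more negative genes were Pdcd4, Gm2a and Ptp4a1. Gm2a, the activator that lysosomes need to break down gangliosides, was at 109, 170.3 and 98.8 RPKM in the morulas and 369.7, 326 and 388 RPKM in the blastulas, against 38.1, 73.3 and 80.7 and 1589, 2794 and 2729.9 RPKM in vivo (-3.66 ± 0.58, adjusted p = 0.0182), a rise in both that was larger in vivo. Pdcd4, an inhibitor of translation, was at 0, 0.0249 and 0.104 RPKM in the morulas and 0.533, 0.576 and 0.0383 RPKM in the blastulas, against 0.0616, 0.32 and 0.658 and 31.3, 45.8 and 103 RPKM in vivo (-4.97 ± 0.75, adjusted p = 0.0149). Ptp4a1, a tyrosine phosphatase, was at 411, 302 and 535 RPKM in the morulas and 334, 304 and 437 RPKM in the blastulas, against 819, 822 and 831 and 5149, 6181 and 4572 RPKM in vivo (-2.86 ± 0.41, adjusted p = 0.0137), and 69.5% of its stretches occur in other genes. In all 3 the in vivo blastulas lay far above the in vivo morulas. This count rests on single embryos: it was 0 without NTC blastula 2, NTC morula 1 or NTC morula 3, 10 without in vivo morula 2, 11 without NTC morula 2, 54 without in vivo morula 1, 96 without in vivo blastula 3, 103 without in vivo blastula 2 and 256 without in vivo blastula 1. Against NTM embryos the interaction passed for 0 of 10043 genes (0.0%) in limma, with 773 at an unadjusted p under 0.05 and a lowest adjusted p of 0.332.

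**Figure D5:**
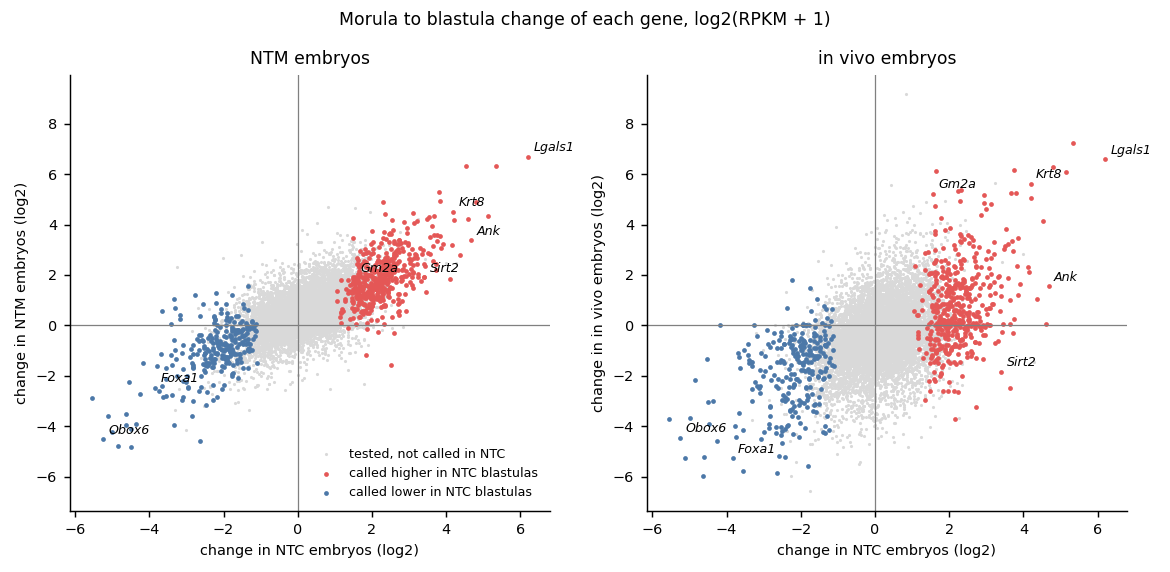
Change of each gene from morula to blastula in NTC embryos (horizontal axis) against its change in NTM embryos (left) and in vivo embryos (right), as differences of log2(RPKM + 1), with genes called higher or lower in NTC blastulas coloured. Coloured genes lie mostly in the quadrants of equal sign, for instance Lgals1 at 6.20 and 6.59 in the right panel, while Sirt2 lies at 3.40 in NTC and -1.83 in vivo.

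The called genes also differed in kind. Protein-coding genes were 96.5% of the up-regulated and 83.7% of the down-regulated genes, against 91.1% of all tested. Genes with provisional Gm names made up 17.5% of the down-regulated, 2.85% of the up-regulated and 6.81% of all tested genes. Cumulus cells expressed 58.1% of the up-regulated and 31.6% of the down-regulated genes at 10 RPKM or more, against 37.1% of all tested. The up-regulated genes were thus more often genes that a somatic cell expresses. Runs of at least 3 called genes of 1 direction, with gaps of at most 1 Mb, numbered 30 for up-regulated and 10 for down-regulated genes. Among the latter were 6 genes with Gm names on chromosome 5 (chr5:93481829-95975623) and 5 genes around Sp110 on chromosome 1 (chr1:84992690-85598817). Motifs in promoters were counted on either strand in 250 bases of 347 up-regulated, 170 down-regulated and 7481 tested genes with a RefSeq promoter. The AP-2 motif GCCNNNGGC was in 20.5% of the up-regulated, 20.6% of the down-regulated and 20.2% of all tested genes, and in 13.6% of all RefSeq promoters. The TEAD motif GGAATG was in 12.7%, 13.5%, 10.3% and 12.6%, the GATA motif AGATAA in 4.03%, 5.29%, 5.55% and 10.3%, and CCACCC in 33.7%, 32.4%, 31.3% and 27.7% in the same order. The letters TATAAA were in 2.88% of the up-regulated, 6.47% of the down-regulated, 6.00% of all tested genes and 13.0% of all RefSeq promoters.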

How the data were processed

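Single embryos were lysed and their RNA was reverse transcribed, tailed and amplified for 18 to 20 cycles without molecular identifiers, so reads are not independent molecules and limits from reads cover counting error only. The authors aligned the reads with TopHat, counted them per gene with HTSeq and deposited RPKM values of 27238 genes in 60 libraries. Per the labels the processing notes name Bowtie 0.12.2 and the build mm8, while the gene IDs are newer, so positions come from GENCODE M21 (GRCm38), where 27056 IDs matched, and promoters from RefSeq (GRCm38.p6). Columns were matched to samples by name, and values were used as deposited.

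The 3 NTC blastulas were compared with the 3 NTC morulas by limma 3.58.1 (lmFit, eBayes with an intensity trend, R 4.3.3) on log2(RPKM + 1) for genes with a mean of at least 0.5 RPKM. A fold change is on this scale, which understates low genes, and ± is its standard error. Interaction terms compared the change with that of NTM or in vivo embryos. The code was tested on simulated data. Other steps used Python 3.11.15 with pandas 2.3.3, numpy 2.4.6, scipy 1.17.1 and matplotlib 3.10.9. Reads shared between genes were estimated from 75-base stretches of GENCODE transcripts.

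The members and the 25 gene lists were chosen with earlier results of these data known. Genes named are the 15 largest rises and 15 largest falls among called genes that reached 5 RPKM, without genes of provisional names (20 and 53 left out), called or defining members of the lists, 4 genes the study names, and up to 6 genes in each direction of an interaction. A gene that this rule names is not reported here. Alternatives were a pseudocount of 0.1, no filter or a mean of 2 RPKM, scaling by median ratios, all 20 groups in one fit, the replicate number as a block, no fold threshold, no intensity trend and leaving out each library. Leaving out mitochondrial genes was added after seeing the data.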

Additional observations from a re-analysis of the deposited data

Results flagged for a closer look

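The change from morula to blastula differed between NTC and in vivo embryos, by the interaction term in limma, for 23 genes. Among the more positive in NTC embryos, the log2 change differed for Gyg by 5.95, Ap3s1 by 5.87, Cab39l by 5.69, Cep83 by 5.64, Sirt2 by 5.23 and Mzt1 by 5.06. More negative were Pdcd4 by -4.97, Gm2a by -3.66 and Ptp4a1 by -2.86. Ap3s1, a subunit of the AP-3 adaptor of vesicles, was at 7.1, 16.7 and 7.69 RPKM in the morulas and 36.8, 32.5 and 87.2 RPKM in the blastulas, and at 53.3, 21.4 and 20.1 RPKM in in vivo morulas and 5.17, 0.158 and 0.589 RPKM in in vivo blastulas. Cep83, a protein of the centriole, was at 17.5, 25.1 and 14.7 RPKM in the morulas and 65.3, 36.4 and 38.2 RPKM in the blastulas, and at 49.1, 15.1 and 14.5 and then 0.213, 0 and 0.0583 RPKM in vivo. Mzt1, a small protein of the gamma-tubulin complex, was at 41.1, 19.6 and 27.1 RPKM in the morulas and 30.7, 53.9 and 66.7 RPKM in the blastulas, and at 47.9, 41 and 17.5 and then 1.5, 0.673 and 0.193 RPKM in vivo. Each of these 3 genes was lower in every in vivo blastula than in any NTC blastula. In vivo blastulas had 7730 to 7808 genes above 0, against 11771 to 13000 in NTC blastulas, and the part of this in the differences was not tested. Of the stretches of Ap3s1, 15% occur in other genes. In NTM embryos the log2 change was 1.92 for Sirt2 and 1.90 for Gm2a. The test of NTC against NTM changes passed for 0 genes in limma (773 at an unadjusted p under 0.05). Groups of 3 embryos were not examined for single outlying values.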

How the results depend on the processing

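Counts of NTC calls were 719 with the settings of the report. They were 72 with no filter on low values (38 up-regulated, 34 down-regulated, of 17381 genes tested), 463 with one fit over all 20 groups (314 and 149) and 435 with a replicate block (277 and 158), and 162 to 603 with a library left out (98 to 394 up-regulated, 64 to 217 down-regulated). Median-ratio scaling gave 407 and 419. The other settings (pseudocount 0.1, a mean of 2 RPKM, median-ratio scaling, no fold threshold, no intensity trend, mitochondrial genes left out) gave 637 to 826. Same-numbered embryos were not paired, since the correlations of their deviations from the group means were 0.07, -0.05 and -0.04.

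In vivo counts (69) were 163 with a pseudocount of 0.1, 11 with no filter, 111 at a mean of 2 RPKM, 107 with median-ratio scaling, 1809 with one fit over all 20 groups, 164 with no intensity trend, 266 with mitochondrial genes left out and 0 to 161 with a library left out. NTM counts (415) were 0 with no filter (2402 at an unadjusted p under 0.05), 234 with median-ratio scaling, 625 with one fit, 224 with mitochondrial genes left out and 28 to 879 with a library left out. Median-ratio scaling gave 113 up-regulated and 121 down-regulated NTM genes.

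The 23 differences between NTC and in vivo changes became 161 with a pseudocount of 0.1, 74 with no filter, 37 with median-ratio scaling, 309 with one fit, 10 with the replicate block, 98 with no intensity trend, 195 with mitochondrial genes left out and 0 to 256 with a library left out. Those between NTC and NTM changes were 0, except 2 with one fit and 0 to 2 with a library left out. The causes were not tested. Of the values of named genes under the alternatives, 1008 kept their direction and side of the threshold, 300 lost and 1 gained a call, and 8 turned their sign, all of genes that were not called: Kif3a (-0.013 with median-ratio scaling, and -0.17 to 0.62 with a library left out), Tgfbr1 (-0.17 to 0.17 with a library left out), Tfcp2l1 (-0.33 to 1.29, the lowest without morula 2) and Ptp4a1 (-0.40 to 0.0088, the highest without morula 3). The median SE was 0.46 with 3 embryos per stage.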

Other observations

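The lists below were drawn up after the called genes had been seen. Like the earlier lists, they carry no test and their counts are a description. Of 75 genes that build ribosomes in the nucleolus, all tested, 16 were down-regulated and none was up-regulated in NTC blastulas, 71 had a negative change and the median was -0.94, where 2.62% of all genes were down-regulated. Npm1, nucleophosmin, was at 2289, 2012 and 2357 RPKM in the morulas and 865, 919 and 814 RPKM in the blastulas (log2 fold change -1.36 ± 0.21, adjusted p = 0.00903). Fbl, the methyltransferase fibrillarin, was at 106, 86.9 and 91.5 RPKM in the morulas and 31.6, 31.8 and 35.6 RPKM in the blastulas (log2 fold change -1.49 ± 0.28, adjusted p = 0.017). Wdr43, a processome subunit, was at 157, 206 and 191 RPKM in the morulas and 34.8, 44 and 72.4 RPKM in the blastulas (log2 fold change -1.91 ± 0.33, adjusted p = 0.0134). All morulas were above all blastulas in each of them. The median was -0.81 in vivo and 0.12 in NTM embryos, with 0 calls by limma in either (11 and 3 genes had an unadjusted p under 0.05). Ribosomal protein genes, in contrast, had a median of -0.07 in NTC embryos. The count was 26 under median-ratio scaling and 0 without blastula 1, 1 without morula 3, 2 without morula 1 or blastula 2, 4 without blastula 3 and 8 without morula 2. The call of Npm1 held in 5, that of Wdr43 in 3 and that of Fbl in 2 of the 6 fits that left out a library.

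Enzymes of one-carbon, polyamine and purine metabolism gave 11 down-regulated and no up-regulated genes of 36 tested (median -0.70, where 2.62% of all genes were down-regulated), and 3 without morula 1 or morula 3, 4 without blastula 1, 5 without blastula 2, 7 without blastula 3 and 8 without morula 2. Impdh2, which makes guanine nucleotides, was at 129, 58.3 and 70.8 RPKM in the morulas and 5.54, 9.7 and 6.81 RPKM in the blastulas (log2 fold change -3.33 ± 0.40, adjusted p = 0.00503). Sms, spermine synthase, was at 213, 249 and 217 RPKM in the morulas and 51.7, 43.4 and 51.9 RPKM in the blastulas (log2 fold change -2.19 ± 0.26, adjusted p = 0.00503). Gcsh, of the glycine cleavage system, was at 502, 528 and 268 RPKM in the morulas and 72.4, 83.4 and 63.5 RPKM in the blastulas (log2 fold change -2.50 ± 0.32, adjusted p = 0.00595). These 3 stayed called whichever library was left out. Phgdh and Psat1, of serine synthesis, fell with log2 fold changes of -2.20 ± 0.47, adjusted p = 0.0264 and -1.67 ± 0.32, adjusted p = 0.019, and both calls were lost in 4 of the 6 fits that left out a library.

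Of 67 tested genes of the endoplasmic reticulum and of transport to the Golgi, 13 were up-regulated and 1 was down-regulated (median 0.72, where 4.54% of all genes were up-regulated), and the up-regulated were 1 without blastula 1, 2 without blastula 2 or morula 3, 5 without morula 1, 7 without blastula 3 and 10 without morula 2. Hspa5, the main chaperone of this compartment, was at 36.4, 48.2 and 15.8 RPKM in the morulas and 245, 198 and 155 RPKM in the blastulas (log2 fold change 2.65 ± 0.42, adjusted p = 0.00951). Calr, calreticulin, was at 66, 34.1 and 26.8 RPKM in the morulas and 308, 225 and 117 RPKM in the blastulas (log2 fold change 2.33 ± 0.45, adjusted p = 0.0188). Tmed7, a cargo receptor, was at 17.3, 10.5 and 20.9 RPKM in the morulas and 83.3, 82.6 and 83.4 RPKM in the blastulas (log2 fold change 2.34 ± 0.34, adjusted p = 0.00792). The exception was Dnajb9, a co-chaperone, at 293, 294 and 159 RPKM in the morulas and 24.6, 28.5 and 69.2 RPKM in the blastulas (log2 fold change -2.68 ± 0.44, adjusted p = 0.0106). The call of Tmed7 held in 6, that of Hspa5 in 5, that of Dnajb9 in 4 and that of Calr in 3 of the 6 fits that left out a library. The median was 1.18 in NTM embryos, with 9 up-regulated, and 0.32 in vivo, with 1.

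Inhibitors of basic helix-loop-helix factors split, since Id2 rose while Id1 and Id3 fell. Id3 was at 38.4, 60.8 and 21.2 RPKM in the morulas and 4.78, 5.22 and 14.6 RPKM in the blastulas (log2 fold change -2.19 ± 0.51, adjusted p = 0.0361). Id1 was at 4.01, 2.25 and 4.56 RPKM in the morulas and 0.457, 0 and 0 RPKM in the blastulas (log2 fold change -1.99 ± 0.43, adjusted p = 0.0271). All 3 calls were lost in 5 of the 6 fits that left out a library.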
